A study of Mus musculus with 8 samples.

Results

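The genes described here lie between 50 and 60 Mb on mouse chromosome 14 (probe positions in build mm9), a window that holds Rnase4 and a cluster of related ribonuclease genes. A member is a gene symbol with a non-control probe in that window, read through its brightest probe. The window held 237 of the 22897 symbols on the array. Of these members, 131 were tested because their probe was well above background in both samples of at least 1 group, out of 16366 genes tested in all. The window was chosen from the log2 ratios of KO over WT, so these ratios are given as descriptions. Where counts of members past the limma threshold for them are printed, they stand beside the share of all genes, and nothing is read from them. Cortex against hippocampus, and the difference between the KO over WT ratios of the tissues, played no part in that choice and were tested.

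RNA was taken from cortex of Tet1 KO mice, cortex of wild-type (WT) mice, hippocampus of Tet1 KO mice and hippocampus of WT mice, with 2 samples in each group. All mice were naive and carried the mixed genetic background 129 C57BL6, and the sources used here state neither their age nor which part of Tet1 was deleted. Each KO sample was labelled with Cy5 and shared 1 of 4 two-colour arrays with the WT sample of the same tissue and number, labelled with Cy3. No dyes were swapped, so genotype and dye cannot be told apart in a KO over WT ratio. Nothing states that same-group samples came from separate mice, so the p-values reflect only how far these samples differed from each other, a spread that may be technical. Nor is it stated whether 1 mouse gave both cortex and hippocampus, and the main fits do not pair the tissues.

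The share of spots that stood well above background was 66.6% to 67.2% in KO samples and 49.7% to 51.7% in WT samples, and none was saturated. Of the tested members, 91 were well above background in all 8 samples, and 32 on no WT array. In WT, all 6 measured cortical markers were higher in cortex and 5 of 6 hippocampal markers were lower there, in the direction of their names. The brightest Tet1 probe gave log2 ratios of -0.18 and -0.20 in cortex and -0.23 and -0.10 in hippocampus, a mean of -0.18 ± 0.05 (SE, limma adjusted p = 0.0813). That probe checks the genotype only if it lies in the deleted part.

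Ribonucleases of the pancreatic type, the ribonuclease A family, are small secreted enzymes that cut RNA after pyrimidines. The family includes the pancreatic enzyme itself, angiogenin, which promotes vessel growth and cuts transfer RNA in stressed cells, and the eosinophil-associated ribonucleases of rodents, which expanded by gene duplication. Rnase4 and Ang are an unusual pair: they are known to be transcribed from shared promoters, with common first exons spliced to separate coding exons. Tet1, the gene disrupted here, encodes an enzyme that oxidises 5-methylcytosine, the methylated base found mainly where C is followed by G.

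The promoters of Rnase4, Ang and Rnase1 are shown because the first pair has 1 annotated start in common while its probes gave opposite ratios, and Rnase1 is the next tested family member along. The sequences are RefSeq promoter windows of build GRCm38.p6, with 250 bases before and 50 after the start. Each CG, the only motif searched and the same on both strands, is in capitals. Windows were found for 179 of the 237 members and for 13 of the 16 ribonuclease family members in the window. The first is the shared window of Rnase4 and Ang, at chr14:51090827-51091126 on the plus strand, the second a downstream start of Rnase4, at chr14:51095750-51096049 on the plus strand, and the third that of Rnase1, at chr14:51146718-51147017 on the minus strand.
Rnase4 and Ang, shared start: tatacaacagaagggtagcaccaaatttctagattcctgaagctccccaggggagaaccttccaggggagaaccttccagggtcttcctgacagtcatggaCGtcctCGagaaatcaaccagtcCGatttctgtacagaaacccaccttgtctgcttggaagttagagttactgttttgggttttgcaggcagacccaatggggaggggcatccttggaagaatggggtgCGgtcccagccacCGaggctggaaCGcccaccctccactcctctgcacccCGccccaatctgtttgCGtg
Rnase4, downstream start: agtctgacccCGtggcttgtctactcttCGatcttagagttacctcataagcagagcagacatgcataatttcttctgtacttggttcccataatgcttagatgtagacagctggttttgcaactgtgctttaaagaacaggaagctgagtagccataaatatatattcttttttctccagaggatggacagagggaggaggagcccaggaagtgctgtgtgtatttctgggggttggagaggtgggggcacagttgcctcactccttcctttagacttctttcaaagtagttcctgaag
Rnase1: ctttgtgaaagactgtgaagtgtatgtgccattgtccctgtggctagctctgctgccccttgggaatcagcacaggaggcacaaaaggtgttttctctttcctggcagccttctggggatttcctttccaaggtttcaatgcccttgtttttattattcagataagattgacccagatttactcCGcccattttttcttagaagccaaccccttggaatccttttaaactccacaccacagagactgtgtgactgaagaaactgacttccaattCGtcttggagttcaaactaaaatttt
The shared window held 8 CG, against 2 in the downstream window of Rnase4 and 2 in that of Rnase1. Over all 32817 promoter windows of the table the median was 7, 94.6% held at least 1 CG, and 54.2% had 8 or fewer. Methylation was not measured in this study.

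Of the 28 ribonuclease family symbols listed, 16 lay in the window, 7 were tested and 9 were not well above background in both samples of any group. The KO over WT ratios of Rnase4, Rnase1, Ear6 and Ear11 were above 0 on all 4 arrays, as were those of 28.2% of all genes tested, those of Ang and Ang4 were below 0 on all 4, as for 17.7% of all genes, and Rnase10 had both signs. Rnase1, Ear6, Ear11 and Rnase10 entered the test through KO samples alone. They lay below 0 under median centring of the arrays, relative to the median of all genes. Nothing is therefore read from the count above 0. The mean log2 ratios ran from -0.79 for Ang to 1.07 for Rnase4.

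Rnase4, a ribonuclease with a strong preference for cutting after uridine, had the highest ratio of the window. Its log2 normalised intensity was 10.98 and 10.93 in KO cortex, against 9.93 and 9.82 in WT cortex. In hippocampus it was 11.11 and 10.83 in KO samples, against 9.88 and 9.93 in WT samples. Every KO sample was above every WT sample, and the lowest KO value was 10.83. The ratios were 1.04 and 1.11 in cortex and 1.22 and 0.90 in hippocampus, a mean of 1.07 ± 0.14 (SD, n = 4 arrays), or 2.1-fold higher in KO. The probe (mm9 chromosome 14, 51725036 to 51725095) was the only one for this gene and was well above background in all 8 samples.

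Ang, which encodes angiogenin, had the opposite sign. Its probe lies 3.7 kb before that of Rnase4 (51721338 to 51721397), and it too was well above background in all 8 samples. The log2 normalised intensity was 7.95 and 7.88 in KO cortex, against 8.98 and 8.53 in WT cortex. In hippocampus it was 8.14 and 8.0 in KO samples, against 8.77 and 8.86 in WT samples. All 4 KO samples lay below all 4 WT samples, and the ratios of -1.03, -0.65, -0.63 and -0.86 had a mean of -0.79 ± 0.19 (SD, n = 4 arrays), which ranged from -1.18 to -0.46 over the alternative settings. The pair thus stood at opposite ends of the family although RefSeq gives them a start in common, the one shown first above.

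Ang4, an angiogenin relative known in mouse as an antimicrobial protein of Paneth cells, also lay below 0 on every array. Its log2 normalised intensity was 7.34 and 7.31 in KO cortex against 8.14 and 8.08 in WT cortex, and 7.44 and 7.23 in KO hippocampus against 7.79 and 7.94 in WT hippocampus. The groups did not overlap, and the mean ratio was -0.66 ± 0.21 (SD, n = 4 arrays), with a range from -1.35 to -0.32 over the alternative settings. Its probe (52384066 to 52384125) lies 659.0 kb from that of Rnase4.

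Rnase1, the pancreatic-type enzyme that endothelium also secretes, and Ear6, an eosinophil-associated ribonuclease, were weak. Rnase1 was well above background in 1 KO cortex sample, both KO hippocampus samples and no WT sample, with ratios of 0.77, 0.87, 0.97 and 0.47. Ear6 was well above background in all 4 KO samples and no WT sample, with ratios of 0.73, 0.58, 0.80 and 1.08. Since the WT signals give only a bound and that bound left no fold above 1, no fold is stated for either gene. Under median centring of the arrays in place of loess, both turned to the other side of 0, to -0.67 for Rnase1 and -0.57 for Ear6 relative to the median of all genes.

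Ear11 (now Rnase2a) was well above background in KO hippocampus only, with a mean ratio of 0.36, or -1.03 under median centring relative to the median of all genes. Rnase10, a family member known from the epididymis, had a mean of -0.03 with the WT signals not well above background. The 9 that were not tested were Rnase6, Rnase9, Rnase11, Rnase12, Rnase13, Ear4, Ear5, Ear7 and Ang2, and their probes stood above background in no sample. Family members are close copies, so a probe could in principle read a relative. The longest run of bases shared by 2 of the 16 probes was 13 of 60, between Ear4 and Ear7, while the Rnase4 probe shared at most 7 and the Ang probe at most 8 with another. Probes were compared only with each other and not with the transcripts of relatives, so this cannot decide whether a probe reads a relative.

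**Figure D1:**
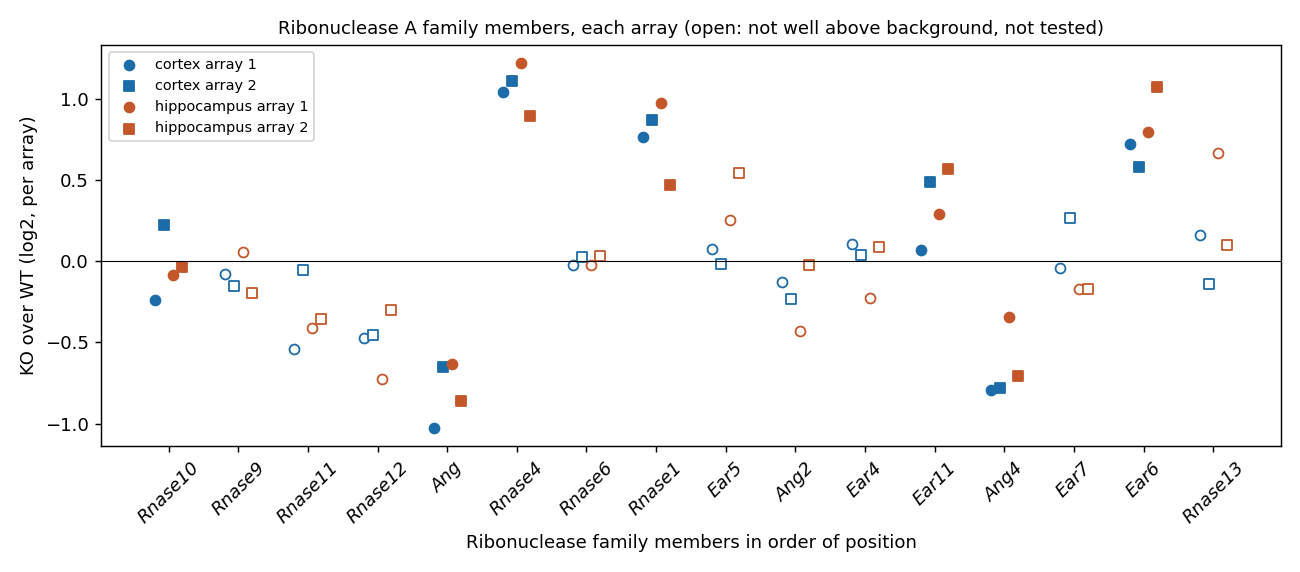
KO over WT log2 ratios of the 16 ribonuclease A family members in the window, in order of position, with 1 point per array (circles replicate 1, squares replicate 2, blue cortex, orange hippocampus) and open points for genes not tested. Rnase4 lies between 0.90 and 1.22 and Ang between -1.03 and -0.63. Rnase1 and Ear6 lie above 0 here, and at -0.67 and -0.57 under median centring relative to the median of all genes.

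The nearest genes of other families did not share the ratio of Rnase4. Before it, past Ang and Rnase10, came Pnp2 (51584365 to 51584424), a paralogue of purine nucleoside phosphorylase, which had the lowest ratio of the window. Its log2 normalised intensity was 7.53 and 7.41 in KO cortex against 8.54 and 8.16 in WT cortex, and 7.21 and 7.03 in KO hippocampus against 7.68 and 8.11 in WT hippocampus. All KO samples lay below all WT samples, with a mean ratio of -0.83 ± 0.27 (SD, n = 4 arrays), and -1.5 to -0.43 over the alternative settings. Pnp, the purine nucleoside phosphorylase gene beside it, had ratios of 0.06, 0.18, 0.19 and -0.30, and its neighbour Tmem55b (now Pip4p1), a lysosomal phosphatidylinositol phosphatase, had 0.16, -0.13, -0.09 and -0.03. Both stayed near 0 with mixed signs. After Rnase4, beyond Rnase1 and Ear11, the vomeronasal receptor gene Vmn2r88 had a mean of 0.19, with the WT signals not well above background and -0.80 under median centring relative to the median of all genes.

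Across the window, 9 members had a ratio past 1.5-fold in size (0.58 on the log2 scale) with the same sign on all 4 arrays, against 1.88% of all genes tested. They were Rnase4, Ear6, Rnase1, A630031M23Rik and the olfactory receptor gene Olfr745 above 0, and Pnp2, Ang, Ripk3 and Ang4 below 0. By position, 5 of the 9 lay between 51 and 52 Mb, 2 between 52 and 53 Mb, 2 between 56 and 57 Mb. Of the 5 above 0, only Rnase4 was well above background in any WT sample. It alone also kept its sign under median centring, relative to the median of all genes. A630031M23Rik turned to -0.73 and Olfr745 to -0.46 there. Among members well above background in all 8 samples, the 4 that passed were Rnase4, Ang, Ang4 and Pnp2, against 0.951% of all such genes.

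**Figure D2:**
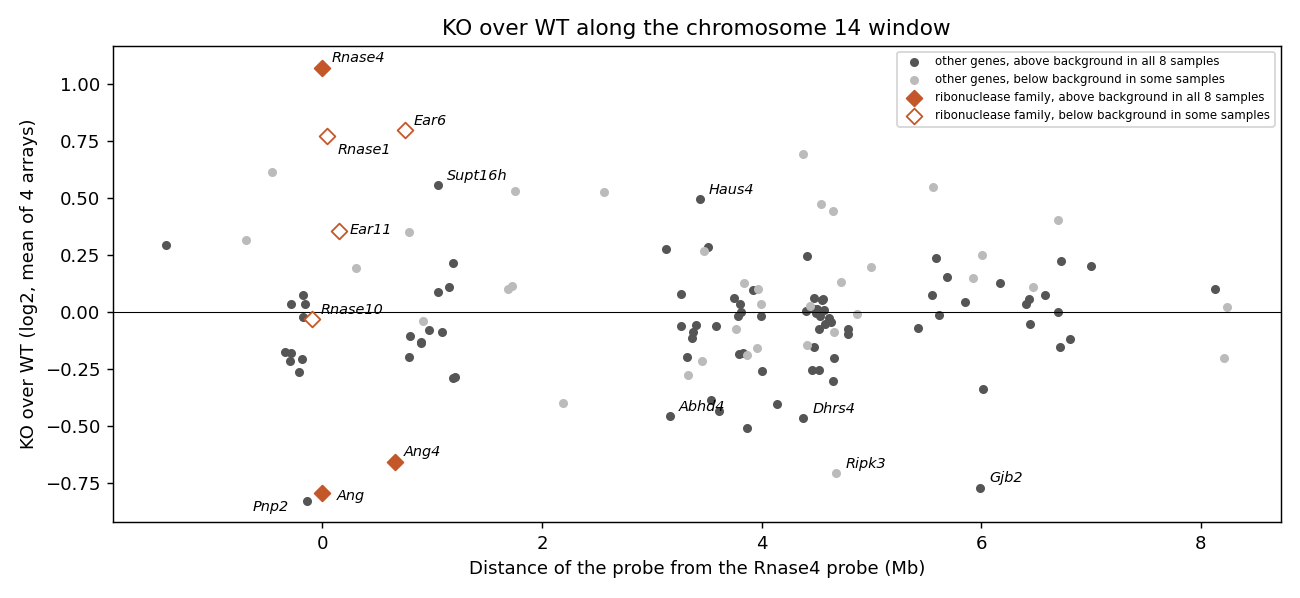
Mean KO over WT log2 ratio (4 arrays) of the 131 tested members against the distance of their probe from the Rnase4 probe in Mb, with ribonuclease family members as diamonds and pale or open symbols for genes below background in some samples. Rnase4 (1.07) is the highest point, and Pnp2 (-0.83) and Ang (-0.79) close to it are the lowest. Ear6 and Rnase1 (open, above 0) fall below 0 under median centring relative to the median of all genes.

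In limma over both tissues, 30 of the 131 members had an adjusted p under 0.05, against 11.2% of all genes tested. Of these, 17 were higher in KO, against 7.31% of all genes, and 13 were lower, against 3.85%. In single tissues the count was 0 of 131, against 0.0611% of all genes in cortex and 0.0183% in hippocampus, while 44 members in cortex and 49 in hippocampus had an unadjusted p under 0.05, against 21.2% and 23.8% of all genes. The count over both tissues fell to 0 when any 1 of the 4 arrays was left out. Because the window was chosen on this contrast, nothing is read from these shares.

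Of the 91 members well above background in all 8 samples, 15 lay above 0 on all 4 arrays, against 25.6% of such genes in the whole series, and 32 lay below 0 on all 4, against 19.6%. The 32 members well above background on no WT array entered the test through KO samples alone, so their signs are not counted. Other genes of chromosome 14 had a median of 0.01 (455 tested), against 0.03 over all genes tested. Over both tissues 60 of them passed, or 13.2%, against 11.2% of all genes tested.

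Of 23 tested genes for DNA repair, chromatin and RNA binding, 4 had ratios above 0 on all 4 arrays, against 28.2% of all genes tested. Below 0 on all 4 arrays lay 9, against 17.7%. The list's median ratio was -0.05, against -0.01 over the 131 members tested and 0.03 over all genes tested. Because the window was chosen on this contrast, nothing is read from these counts. Supt16h (now Supt16), the large subunit of the histone chaperone FACT, had log2 normalised intensities of 8.57 and 8.56 in KO cortex against 8.06 and 8.10 in WT cortex, and of 8.73 and 8.63 in KO hippocampus against 8.03 and 8.08 in WT hippocampus. Every KO value was above every WT value, and the mean ratio was 0.55 ± 0.10 (SD, n = 4 arrays). It ranged from 0.16 under median centring, relative to the median of all genes, to 0.91 with the scanner software's processed signals. Its probe overlaps in position that of Rpgrip1 on the other strand, which had a mean of 0.09. Mphosph8, a reader of methylated histone H3 in heterochromatin, had a mean of 0.24, with 0.12 where outlying local backgrounds were kept and 0.43 under median centring relative to the median of all genes. Tox4, an HMG-box protein, had -0.29 on its brightest probe and -0.66 on its other, and the zinc finger factor Sall2 had -0.28, or -0.12 under median centring relative to the median of all genes. Apex1, the abasic-site endonuclease of base excision repair, had 0.07 with mixed signs, and Mettl3, the RNA adenosine methyltransferase, had 0.21 on 4 arrays of the same sign, or 0.13 with outlying local backgrounds kept.

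Rec8, a cohesin subunit of meiotic chromosomes, split by replicate number instead of by genotype or tissue. Log2 normalised intensities were 9.62 and 8.04 in KO cortex against 8.69 and 9.30 in WT cortex, and 9.09 and 8.03 in KO hippocampus against 8.42 and 9.39 in WT hippocampus. The ratios were 0.94 and 0.67 on both arrays numbered 1, and -1.26 and -1.36 on both numbered 2. A mean over the 4 arrays, -0.25 ± 1.23 (SD), describes neither pair.

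Among 16 tested genes of metabolism and transport, 2 had ratios above 0 on all 4 arrays, against 28.2% of all genes tested. Below 0 on all 4 arrays lay 5, against 17.7%, and the list's median ratio was -0.02. Nothing is read from these counts either. Pnp2 was the lowest. Dhrs4, a reductase of retinal and other carbonyls, had log2 normalised intensities of 8.14 and 8.13 in KO cortex against 8.61 and 8.69 in WT cortex, and of 8.44 and 8.47 in KO hippocampus against 8.85 and 8.89 in WT hippocampus. Its 4 ratios lay close together at -0.46 ± 0.06 (SD, n = 4 arrays), with a range of the mean from -0.81 to -0.29 over the alternative settings. Slc7a8, a transporter of neutral amino acids, had a mean of -0.43 ± 0.15. The zinc transporter gene Slc39a2 had 0.35, with no WT sample well above background and -1.0 under median centring relative to the median of all genes.

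Of 8 tested genes for interferon response, proteasome and cell death, the kinase gene Ripk3, which drives necroptosis, had the lowest ratio. KO cortex had log2 normalised intensities of 6.83 and 6.85 against 7.61 and 7.50 in WT cortex, and the values were 7.39 and 7.25 in KO hippocampus against 8.20 and 7.83 in WT hippocampus. It was well above background in all KO samples and in 1 WT hippocampus sample, so the WT cortex values are only bounds and no fold is given there. Its fitted mean ratio lay between -1.56 and -0.34 over the alternative settings. The other 7 had means between -0.30 (Cideb, a lipid droplet protein) and 0.06 (Psme1, a proteasome activator subunit). Irf9, the DNA-binding part of the interferon-stimulated factor ISGF3, had 0.01.

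Outside these lists, Abhd4, a lipase that acts on N-acyl phospholipids, had a mean of -0.46 ± 0.14, and -0.06 under median centring relative to the median of all genes. Haus4, a subunit of the augmin complex of the spindle, had 0.49 ± 0.09 and was well above background in all 8 samples. A630031M23Rik, 2700022O18Rik (0.55) and Gm10896 (0.53) were on no WT array well above background. Under median centring relative to the median of all genes, 2700022O18Rik had -0.81 and Gm10896 had -0.79. Of 37 olfactory receptor genes in the window, 2 were tested, and of 15 genes for mast cell and lymphocyte proteases, such as granzymes and chymases, 2 were tested, Cma2 with a mean of -0.01 and Ctsg with 0.20, or -1.17 under median centring relative to the median of all genes.

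**Figure D3:**
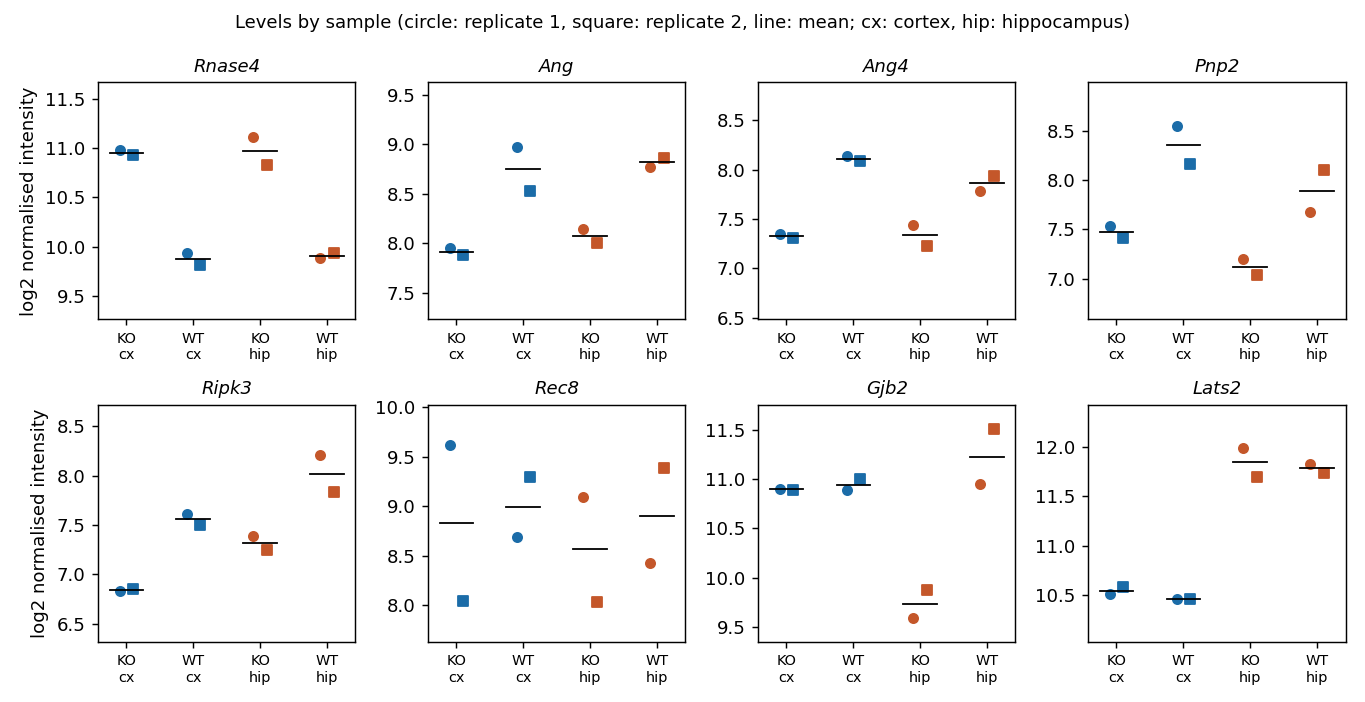
Log2 normalised intensity of 8 members in each sample, with KO left of WT in cortex (cx, blue) and hippocampus (hip, orange), circles for replicate 1, squares for replicate 2 and lines for group means. Rnase4 is higher and Ang, Ang4 and Pnp2 are lower in every KO sample than in every WT sample, Rec8 splits by replicate number, Gjb2 is low in KO hippocampus (9.59 and 9.88), and Lats2 differs between tissues.

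The difference between the KO over WT ratios of cortex and hippocampus was tested next. None of the 16366 genes passed in limma (0%), and 4 members were at an unadjusted p under 0.05, against 4.52% of all genes. For Rnase4 the difference was 0.02 ± 0.14 (SE), for Ang -0.09 ± 0.17, for Ang4 -0.26 ± 0.15 and for Pnp2 -0.11 ± 0.23 (adjusted p = 1 for these 4 genes in limma). With 2 arrays per tissue, tissue differences in the KO effect far beyond these errors could also go undetected. That of Gjb2, given next, was far larger than its SE and did not pass.

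The smallest p among members was that of Gjb2, which encodes connexin 26, a gap junction protein of the leptomeninges. Its log2 normalised intensity was 10.90 and 10.88 in KO cortex, against 10.89 and 11.00 in WT cortex. In hippocampus it was 9.59 and 9.88 in KO samples, against 10.94 and 11.51 in WT samples. The groups overlapped in cortex and not in hippocampus, where the ratios were -1.35 and -1.63, and the difference between tissues was 1.44 ± 0.13 (SE, adjusted p = 0.862, limma), with adjusted p between 0.141 and 1 over the alternatives. Gjb6, connexin 30 of astrocytes, had ratios of -0.16, -0.21, -0.31 and -0.67, and a difference of 0.30 ± 0.15.

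Markers of the leptomeninges lay below 0 in hippocampus, as Gjb2 did, but mostly above 0 in cortex, where the Gjb2 groups overlapped. All 11 listed markers were tested, and their mean ratios lay below 0 for 11 of 11 in hippocampus and for 1 of 11 in cortex. The list's median ratio was 0.43 and 0.18 in cortex and -0.52 and -1.45 in hippocampus. Their summed normalised intensity was 17200 to 18900 in KO cortex against 14300 to 15500 in WT cortex, and 18000 to 28300 in KO hippocampus against 27900 to 37600 in WT hippocampus. In bulk tissue, fewer cells of a type and less RNA per cell cannot be told apart, and the part of the leptomeninges in the Gjb2 values was not tested. The 6 endothelial and mural markers, tested alike, lay below 0 for 4 of 6 in cortex and 5 of 6 in hippocampus, with medians of -0.05 and -0.09 in cortex and -0.18 and -0.40 in hippocampus. Their summed normalised intensity was 20700 to 20900 in KO cortex against 21600 to 23600 in WT cortex, and 17600 to 18100 in KO hippocampus against 25000 to 28500 in WT hippocampus. The 6 oligodendrocyte markers lay below 0 for 3 of 6 in cortex and 5 of 6 in hippocampus, with medians of -0.28 and 0.09 in cortex and -0.0021 and -0.55 in hippocampus. Their sums were 133000 to 150000 in KO cortex against 129000 to 156000 in WT cortex, and 127000 to 168000 in KO hippocampus against 152000 to 171000 in WT hippocampus. The part of these cell types in the Gjb2 values was not tested. The 7 astrocyte markers had medians of 0.01, 0.03, 0.11 and -0.14 on the 4 arrays. The 10 choroid plexus markers, another tissue that a dissection can carry, had medians of 0.53 and 2.11 in cortex and 0.04 and -2.90 in hippocampus. Their mean ratios lay below 0 for 0 of 10 in cortex and 10 of 10 in hippocampus. The sums were 115000 to 187000 in KO cortex against 7860 to 96000 in WT cortex. In hippocampus they were 5680 to 20700 in KO against 4780 to 271000 in WT. The part of choroid plexus in the Gjb2 values was not tested either.

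Cortex and hippocampus were compared within each genotype, and so within 1 dye. In KO, 15 members passed, against 15.1% of all genes tested: 3 were higher in cortex, against 7.74%, and 12 lower, against 7.33%. In WT, 12 members passed, against 15.2%: 1 was higher in cortex, against 7.37%, and 11 lower, against 7.85%. Of these 12, Olfr745, 2610027L16Rik and F630043A04Rik were well above background on no WT array. None of the 7 tested ribonuclease family members passed in either genotype. Rnase4 had cortex over hippocampus ratios of -0.02 ± 0.10 in KO (SE, adjusted p = 0.945) and -0.03 ± 0.10 in WT (adjusted p = 0.872), and Ang had -0.15 ± 0.14 in KO (adjusted p = 0.553) and -0.06 ± 0.14 in WT (adjusted p = 0.818, limma). Without cortex replicate 1 or 2 the member counts were 4 in KO and 4 in WT, and without hippocampus replicate 1 the KO count was 9.

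Lats2, a kinase of the Hippo growth pathway, was lower in cortex in both genotypes. Its log2 normalised intensity was 10.52 and 10.58 in KO cortex against 11.99 and 11.70 in KO hippocampus, and 10.46 and 10.46 in WT cortex against 11.83 and 11.74 in WT hippocampus. The tissues did not overlap, with a cortex over hippocampus ratio of -1.30 ± 0.10 in KO (SE, adjusted p = 0.000446, limma) and -1.32 ± 0.10 in WT (adjusted p = 0.000388). With the mean of its probes in place of the brightest, the ratio was -0.88 in KO and -0.80 in WT. Its KO over WT ratios were near 0, with a mean of 0.07.

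Cpne6, a calcium-dependent membrane-binding protein of hippocampal neurons, had 15.18 and 15.13 in KO cortex against 16.53 and 16.48 in KO hippocampus, and 14.89 and 14.85 in WT cortex against 16.55 and 16.05 in WT hippocampus. Its cortex over hippocampus ratio was -1.35 ± 0.15 in KO (SE, adjusted p = 0.00162, limma) and -1.43 ± 0.15 in WT (adjusted p = 0.00125). Nrl, a transcription factor known from rod photoreceptors, had 7.33 and 7.39 in KO cortex against 8.83 and 9.04 in KO hippocampus, a ratio of -1.58 ± 0.10 (SE, adjusted p = 0.00017, limma). In WT cortex it was not well above background and was at least 2.34-fold lower there than in WT hippocampus (adjusted p = 0.000408). The size of the Nrl ratio in KO ranged from -2.44 with the scanner software's processed signals to -0.82 with outlying local backgrounds kept.

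Called higher in cortex were D830015G02Rik in both genotypes and Gjb2 and Fgf9 in KO. D830015G02Rik (now Mhrt), a long noncoding RNA transcribed antisense to Myh7 in mouse, was not well above background in hippocampus, and was at least 2.21-fold higher in cortex in KO (adjusted p = 0.00129, limma) and at least 1.42-fold higher in WT (adjusted p = 0.00162). With the scanner software's processed signals its fitted log2 ratio was 3.27 in KO and 2.47 in WT, and with outlying local backgrounds kept 0.64 in KO and 0.55 in WT. Gjb2 had 1.16 ± 0.17 in KO (SE, adjusted p = 0.00568) and -0.28 ± 0.17 in WT (adjusted p = 0.336), and the test of the genotype difference is the one above that did not pass. The KO call was lost without cortex replicate 1 (adjusted p = 0.0937) or replicate 2 (adjusted p = 0.087), and WT passed without hippocampus replicate 1, at -0.57 (adjusted p = 0.0254). Fgf9, a growth factor made by neurons, had 0.28 ± 0.07 in KO (adjusted p = 0.0475) and 0.26 ± 0.07 in WT (adjusted p = 0.062), and its KO call was lost without any 1 of the arrays (adjusted p from 0.129 to 0.257), with no filter on dim probes (adjusted p = 0.0801) and with processed signals (adjusted p = 0.0566). With outlying local backgrounds kept the Fgf9 ratio in KO was 0.12 (adjusted p = 0.448, limma).

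Further members lower in cortex were the RIKEN gene 3632451O06Rik (-0.67 ± 0.11 in KO, adjusted p = 0.00697, and -0.20 ± 0.11 in WT, adjusted p = 0.27) and Rem2, a small GTPase that regulates calcium channels (-0.52 ± 0.11 in KO, adjusted p = 0.0219, and -0.33 ± 0.11 in WT, adjusted p = 0.0971). Without cortex replicate 1 the KO calls were lost, at adjusted p = 0.0718 and 0.0818, and likewise without cortex replicate 2, at 0.102 and 0.112. Leaving out either hippocampus array also ended the Rem2 call, at adjusted p = 0.134 without replicate 1 and 0.0623 without replicate 2, as did keeping outlying local backgrounds, at -0.27 (adjusted p = 0.16). In WT, Haus4 had -0.46 ± 0.12 (adjusted p = 0.0486), lost without either cortex array or hippocampus replicate 1, at adjusted p of 0.182, 0.32 and 0.142, and in 8 of 14 alternatives in all. Olfr745 was past the threshold in WT (adjusted p = 0.0267, lost in 6 of 13 alternatives), as were 2610027L16Rik (now Nop9) and F630043A04Rik (now Ska3). These 3 entered the test through KO samples and their WT signals are only bounds, so no fold is given and nothing is read from these calls. Sall2, Homez and Sap18 passed in both genotypes, with ratios between -0.43 and -0.27. Ripk3 did too, with -0.48 ± 0.12 in KO (adjusted p = 0.0441) and at least 1.37-fold lower in cortex in WT (adjusted p = 0.0494). Dhrs4, Jph4, a protein of neuronal membrane junctions, and Pck2, the mitochondrial phosphoenolpyruvate carboxykinase, passed in KO, with adjusted p between 0.0216 and 0.0479. Without cortex replicate 1 or replicate 2, the calls of Sall2, Homez, Sap18, Ripk3, Dhrs4, Jph4 and Pck2 were all lost.

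**Figure D4:**
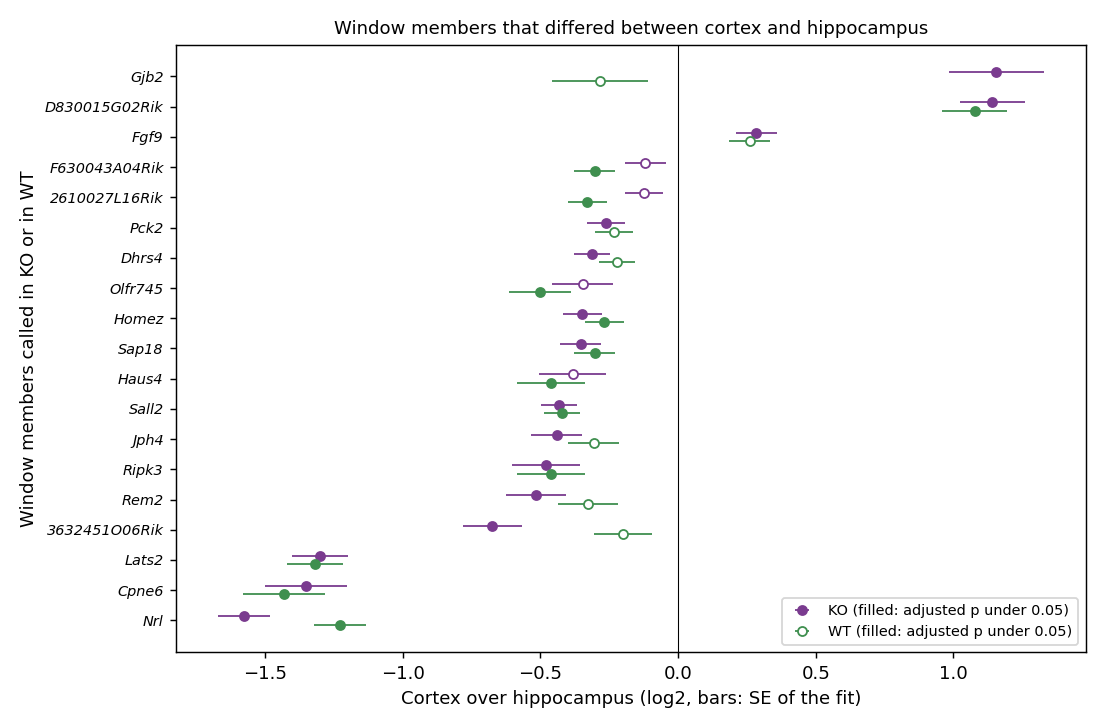
Cortex over hippocampus log2 ratio, with the SE of the fit, in KO (purple, upper) and WT (green, lower) for the members that passed in either genotype, filled where the adjusted p was under 0.05. Nrl, Cpne6 and Lats2 lie below -1.2 in both genotypes, D830015G02Rik above 1 in both, and Gjb2 at 1.16 in KO and -0.28 in WT.

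Genes that act with the ribonucleases lie elsewhere in the genome. Of 21 listed partners and other ribonucleases, 18 were on the array and tested over both tissues in limma. There 0 were higher and 1 was lower in KO, against 7.31% and 3.85% of all genes tested. Counts this close to those shares say nothing about the list, and dye and genotype cannot be told apart in them. Rpp30 (0.23) and Trdmt1 had an unadjusted p under 0.05 on the higher side. The 1 called was Nsun2, a methyltransferase whose marks on transfer RNA are known to protect it from angiogenin (mm9 chromosome 13, 69772899 to 69772958). Its ratios were -0.53 and -0.53 in cortex and -0.56 and -0.57 in hippocampus, a mean of -0.55 ± 0.04 (SE, adjusted p = 0.0215). Over the alternatives the mean ratio of Nsun2 lay between -0.62 and -0.32. Leaving an array out could not turn its sign, and filters, the mean of probes, an intensity trend and the replicate block did not move it. The call was lost when any 1 array was left out. It was also lost in limma with outlying local backgrounds kept (adjusted p = 0.108) and with an intensity trend (adjusted p = 0.0752).

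The remaining partners did not pass. Trdmt1, the other transfer RNA methyltransferase linked to angiogenin, had 0.17 ± 0.07 (SE, adjusted p = 0.146, limma). Rnh1, the cytosolic inhibitor that binds family members tightly, had -0.12 ± 0.06 (adjusted p = 0.229), and Plxnb2, a receptor for angiogenin, had -0.02 ± 0.06 (adjusted p = 0.827). Pop4, a protein of the ribonuclease P complex, split by replicate number as Rec8 did, with ratios of -0.08 and -0.06 on the arrays numbered 1 and 2.87 and 2.80 on those numbered 2.

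At the edges of the window, the last tested genes inside were 3632451O06Rik (0.30) and Olfr738 (0.32) at the start and Gm4902 (-0.20) and D14Ertd668e (0.02) at the end. Just outside lay Slc35f4 (0.17) and Naa30 (0.41) before the start, and Setdb2 (0.22) and Cab39l (0.03) after the end. Of 20 members with 2 or more probes above background in all 8 samples, 16 had probes of the same sign. The median spread between probes was 0.08. It was widest for Psmb5, with 0.28 on its brightest probe and -0.23 on its other, each with the same sign on every array. Rnase4 and Ang are not among these 20 members, so their ratios could not be compared between probes.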

How the data were processed

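The deposited scanner files hold intensities for each spot's mean signal and local background, which the authors extracted with Feature Extraction (version 10.1.1.1 in the file headers). KO and WT samples of an array came with the same file (4 pairs of identical files), 1 channel each. The authors’ deposited value table holds log2 values per channel (column medians 8.21 to 8.25) whose background correction and centring the sources used here do not state. Its log ratios ran in the KO over WT direction (r = 0.94 to 0.959 over spots) and served as an alternative. The submitters' processing notes name limma.

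Signals were read in R 4.3.3 with data.table (1.17.8) and corrected with normexp (offset 50) after replacing outlying local backgrounds by the array's median, a step that an earlier look at these data prompted. Arrays were normalised by loess (span 0.3, 1377 control spots at weight 0). Spots of a probe were averaged and the brightest probe of a gene was used. KO over WT was fitted in limma 3.58.1 on the 4 log2 ratios. Cortex against hippocampus was fitted on separate channels after Aquantile, with an intraspot correlation of 0.192. Adjusted p-values are Benjamini-Hochberg over 16366 genes at a threshold of 0.05. Both fits were also run on simulated data with independent noise on each array and no intraspot correlation. The real data differ in this, so that run does not give their error rates here.

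A level is the log2 normalised intensity of a channel. Where a group was not well above background on any array, only a bound is given, which sets the mean of the brighter group against the dim probe's signal or the array's lowest signal well above background, whichever was higher. These bounds are open to dye bias. The number of arrays limits the precision. Names are those of the array, with current symbols through the RefSeq table (199 of 237 members matched, 20 renamed).

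The members, gene lists and tests were chosen with earlier results of these data known. Named genes were the ribonuclease family, the 5 tested genes on each side of Rnase4, the 8 highest and 8 lowest ratios of 1 sign, up to 5 called members in each direction of the tissue comparisons or the 3 smallest p, members of the role lists, the edges, and the partners. Genes outside this rule are named only to complete a count. Alternatives were Feature Extraction's processed signals, outlying backgrounds kept, median centring, the deposited table, stricter and no filters, the mean of probes, an intensity trend with robust estimation, arrays left out in turn, and fits with other blocks.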

Additional observations from a re-analysis of the deposited data

Results flagged for a closer look

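Nrl, a photoreceptor transcription factor, had KO over WT log2 ratios of -0.39 and -0.25 in cortex and 0.01 and 0.05 in hippocampus on its brightest probe, so that the tissues had opposite signs there. Its other probe, of similar brightness (8.20 against 8.22), did not share this pattern. That probe had 0.0007 and 0.12 in cortex and -0.02 and 0.23 in hippocampus. The difference between tissues on the brightest probe was -0.3481 and did not pass (limma adjusted p = 1). Cma2, a chymase gene, had ratios of 0.04 and 0.07 in cortex and -0.03 and -0.13 in hippocampus, a difference of 0.1333 (limma adjusted p = 1). Bcl2l2, an anti-apoptotic relative of Bcl2, had ratios of -0.10 and -0.03 in cortex and 0.03 and 0.03 in hippocampus, a difference of -0.0948 (limma adjusted p = 1). Each was picked out because both arrays of one tissue lay on the other side of 0 from both arrays of the other. WT cortex samples were not well above background for Nrl.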

How the results depend on the processing

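Over 9 alternative settings the Rnase4 ratio ran from 0.80 with outlying local backgrounds kept to 1.15 without hippocampus replicate 2. The mean of probes could not move it, since its probe was the only one. Its ratio was above 0 on every array, so leaving an array out could not turn its sign. In the same 9 settings, Ang lay between -1.18 and -0.46, Ang4 between -1.35 and -0.32, Pnp2 between -1.5 and -0.43, Ripk3 between -1.56 and -0.34, Dhrs4 between -0.81 and -0.29, Gjb2 between -0.88 and -0.69, Supt16h between 0.16 and 0.91 and Haus4 between 0.33 and 0.54. Under median centring, whose values are given relative to a median of all genes of 0.556, members dim in WT turned negative: Rnase1 -0.67, Ear6 -0.57, A630031M23Rik -0.73, Olfr745 -0.46, 2700022O18Rik -0.81, Gm10896 -0.79 and Slc39a2 -1.0.

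The count of members passing for KO over WT in both tissues (30) was 18 with the strict filter, 51 with no filter, 15 with processed signals, 90 under median centring, and 0 with an intensity trend, with outlying backgrounds kept or without any 1 array. It was 35 with the replicate block. The cortex count (0) was 70 under median centring, 1 in the deposited table and 12 with no replicate block (array unused). The hippocampus count (0) was 1 with the strict filter, no filter, the mean of probes, outlying backgrounds kept or the deposited table, 4 with processed signals, 76 under median centring and 13 with no replicate block. The difference between tissues stayed at 0 of the members in all settings.

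The count for cortex over hippocampus in WT (12) was 7 with the strict filter, 4 with outlying backgrounds kept, 5 under median centring, 9 with the replicate block, and 4 to 11 with an array left out. In KO (15) it was 14 with the replicate block and 4 to 11 with an array left out. With 3 arrays the intraspot correlation was taken from all 4. The median ratio of the members (-0.0109) was -0.0521 with the strict filter, -0.0564 with no filter, -0.027 with the mean of probes, -0.0446 with outlying backgrounds kept, -0.1085 under median centring and 0.0082 in the deposited table. Over the whole series the both-tissue count (1826 genes) was 997 with the strict filter, 3268 with no filter, 10305 under median centring, 3 with outlying backgrounds kept and 0 with an intensity trend. The causes were not tested.

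Same-numbered arrays had a correlation of deviations of 0.16, and there are only 2 pairs, so the main fits do not pair the samples by number. Rec8 and Pop4 nonetheless split by number in both tissues, so a pairing remains possible and was not tested. With the replicate block, which pairs them, Fgf9 in KO was not called (limma adjusted p = 0.0769) and Haus4 in KO was (adjusted p = 0.0437). Of the 131 tested members, 32 were well above background in no WT sample, so their WT values are bounds.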
